A study of Homo sapiens with 3 samples.

Results

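Most cytochrome P450 genes read at or under background in the stratified iHCE cultures. Of 40 P450 genes, 5 were above background on all 3 arrays: *CYP1B1*, *CYP4F12*, *CYP3A4*, *CYP27A1* and *CYP2A6*. This was 12.5% of the P450 genes, against 46.8% of all 11963 genes read the same way. *CYP1B1* had a log2 level of 8.27 ± 0.44 (mean ± SD, n = 3 cultures). Only *CYP27A1* was called by a probe set without the _x_at or _s_at mark, which the array's maker gives to probe sets that may also bind other transcripts. The part of such binding in the other 4 calls was not tested.

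The P450 genes were taken by name: every probe set that the platform annotation gives to exactly 1 gene, with a symbol made of CYP, a number, a letter and a number. This gave 62 probe sets of 40 genes, out of 19071 probe sets with 1 gene. Genes of families 1 to 4, which mostly handle drugs, other foreign compounds and fatty acids, numbered 25. The other 15 act on steroids, retinoids, vitamin D and cholesterol or have no settled substrate. A further 8 probe sets name a P450 gene together with other genes and were not members. Both probe sets of *CYP51A1*, the lanosterol demethylase of cholesterol synthesis, were among these, each shared with *LRRD1*. P450 genes without a member probe set were not analysed here.

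Cytochromes P450 are haem enzymes that insert an oxygen atom into small lipophilic molecules. Most sit in the endoplasmic reticulum and take electrons from the reductase POR, while the mitochondrial members take them from ferredoxin. Liver is the main site of drug-handling P450s, and the corneal epithelium is the first tissue that an eye drop meets. Many members are switched on by receptors that sense their substrates, such as the dioxin receptor for family 1, and the vitamin D and retinoic acid receptors for the enzymes that degrade those hormones.

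RNA came from 3 independent culture batches of the SV40-immortalized human corneal epithelial line (iHCE), which expresses the viral large T antigen, so that all 3 samples are of 1 transformed line and 1 group. The cells were at passages 22 to 23, in DMEM/Ham's F12 with 15% FBS, 5 µg/ml insulin, 0.1 µg/ml cholera toxin, 10 ng/ml EGF and 0.5% DMSO. They grew on collagen-coated inserts, under medium for 1 week and then with 40 µg/ml ascorbic acid and the apical side open to air. The electrical resistance was 489, 439 and 468 Ω · cm2 in cultures 1, 2 and 3, and each was hybridized to 1 Affymetrix human genome array.

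The values are RMA levels on the log2 scale. Each array's threshold was the 95th percentile of its values for 71 panel genes that belong to 12 other tissues: 7.04, 6.96 and 6.90 in cultures 1, 2 and 3. The call above background asks a probe set to exceed the threshold on each array, and a gene was read at its brightest probe set. The files hold no second group, so no group was compared with another. Probe sets differ in how well they bind, so a value was set against the threshold, and levels of different genes were not ranked as amounts. The epithelial markers *KRT8*, *KRT18*, *KRT19*, *EPCAM* and *CDH1* were all above background, between 10.24 and 12.58. Of the corneal markers *KRT3*, *KRT12*, *ALDH3A1* and *PAX6*, none was above background, and *PAX6* exceeded the threshold on 1 array. Pearson's r between cultures across the 62 P450 probe sets, which are not independent replicates, was 0.972 for cultures 1 and 2, 0.967 for 1 and 3 and 0.981 for 2 and 3.

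The levels of the P450 genes were close to those of the panel genes. Their median level was 5.32, against 5.41 for the panel and 6.98 for all genes, and 19 of the 40 exceeded the panel median. By probe set, 6 of 62 (9.68%) were above background, against 38.2% of the probe sets with 1 gene. With limma, testing in 1 direction whether the mean margin over the thresholds exceeded 0 and adjusting over all probe sets, the same 6 were called, against 37.1% of the probe sets with 1 gene. The test takes the thresholds as fixed, so its p-values reflect the spread between cultures and not the choice of panel. A further 4 probe sets exceeded the threshold on 1 or 2 arrays and 52 on none.

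**Figure D1:**
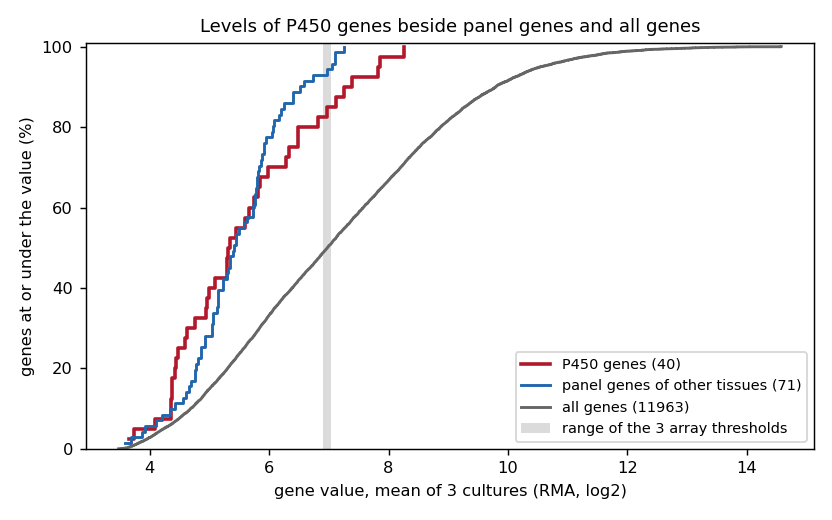
Cumulative share of genes (percent, vertical axis) at or under a given level (RMA log2, mean of the 3 iHCE cultures, horizontal axis) for 40 P450 genes, 71 panel genes of other tissues and all 11963 genes. The grey band spans the thresholds of the 3 arrays, 6.90 to 7.04. Under a level of 6 lie 70% of the P450 genes, against 77.5% of the panel genes and 33.3% of all genes.

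Among families 1 to 4, 4 of 25 genes were above background and 19 exceeded the threshold on no array. The median of the 25 genes was 5.44. Family 1 holds the targets of the dioxin receptor, and 1 of its 3 genes was above background. *CYP1B1*, which oxidizes polycyclic hydrocarbons and oestradiol and whose loss causes congenital glaucoma, read 7.76, 8.50 and 8.54 in cultures 1, 2 and 3 at probe set 202436_s_at. Probe set 202437_s_at of the same gene read 8.23, 7.91 and 7.996. Both were above the threshold on each array (limma, adjusted p = 0.00012 for 202436_s_at and adjusted p = 7.2e-06 for 202437_s_at). The other *CYP1B1* probe sets were dimmer: 202435_s_at read 5.80, 6.86 and 6.95, over the threshold in culture 3 only, and 202434_s_at averaged 5.57 ± 0.16, under it on every array. The gene's call therefore rested on 2 of its 4 probe sets.

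The probe sets of *CYP1B1* also ordered the cultures differently. At 202436_s_at culture 1 was the lowest, and its difference from the average of the other cultures was -0.76 log2 units. At 202435_s_at this difference was -1.10, while at 202437_s_at culture 1 was the highest, with a difference of 0.28. The range of 1.15 at 202435_s_at was the widest of the 62 P450 probe sets and the only one of 1 log2 unit or more, a width that 1.28% of the probe sets with 1 gene reached. *CYP1A1*, the classical dioxin-induced enzyme of hydrocarbon oxidation, read 5.59, 5.68 and 5.94. *CYP1A2*, the caffeine-demethylating enzyme of liver, averaged 5.98 ± 0.21 and 5.03 ± 0.22 at its probe sets. Neither gene exceeded the threshold on any array.

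**Figure D2:**
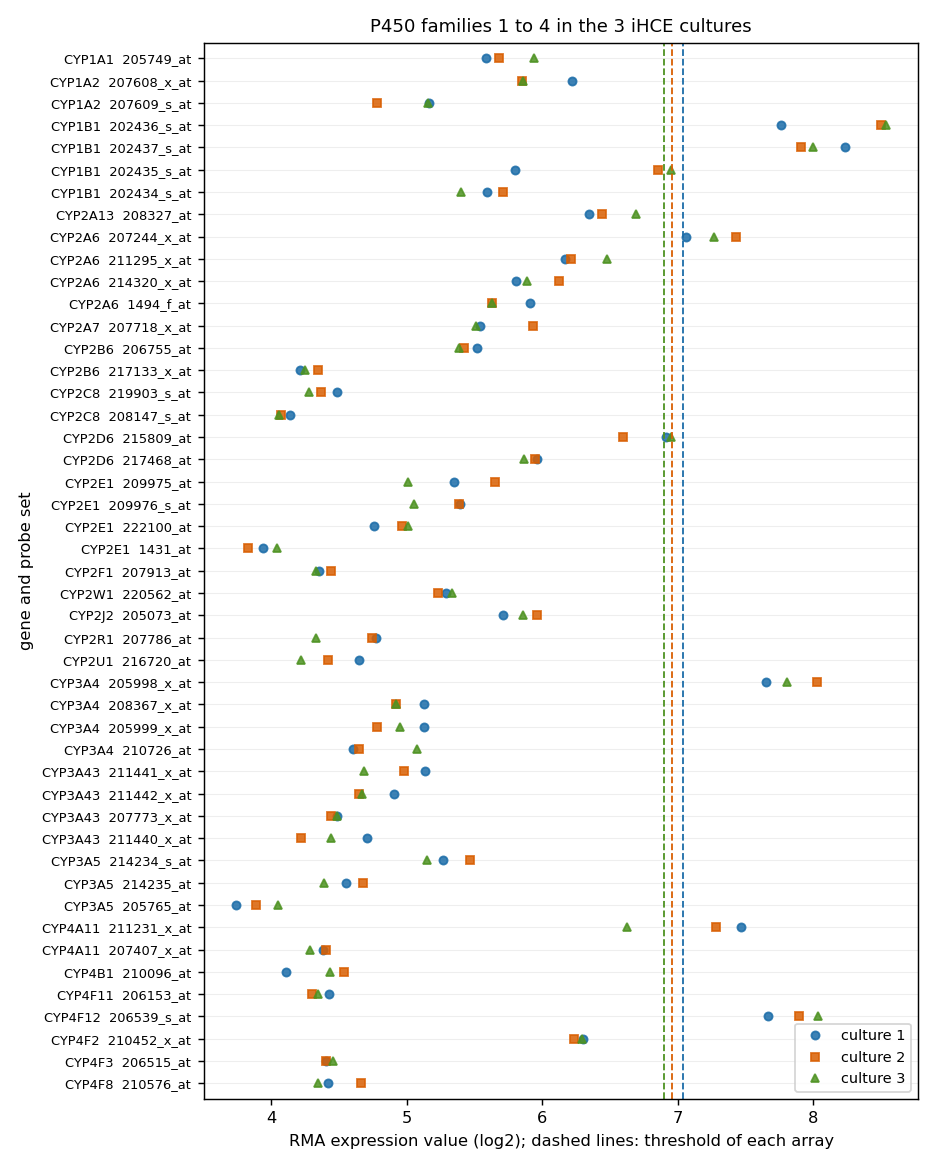
RMA level (log2, horizontal axis) of each of the 47 probe sets of families 1 to 4 in the 3 iHCE cultures, 1 point per culture, with the threshold of each array as a dashed line of the same colour. The points of 5 probe sets lie right of their lines in all 3 cultures: those of *CYP1B1* (2), *CYP2A6*, *CYP3A4* and *CYP4F12*.

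Of the 9 drug-handling genes of family 2, 1 was above background. *CYP2A6*, the nicotine-oxidizing enzyme of liver, read 7.06, 7.43 and 7.27 in cultures 1, 2 and 3 at 207244_x_at. Culture 1 exceeded its threshold by 0.026 log2 units (limma, adjusted p = 0.042). The other 3 probe sets of *CYP2A6* averaged between 5.72 and 6.29 and exceeded the threshold on no array. Its close relatives *CYP2A13*, an airway enzyme, and *CYP2A7*, whose protein is not known to be active, averaged 6.49 ± 0.18 and 5.66 ± 0.23. *CYP2D6*, which metabolizes beta-blockers and codeine, read 6.91, 6.60 and 6.95 at 215809_at, over the threshold in culture 3 only, and averaged 5.92 ± 0.05 at its other probe set. Timolol, a beta-blocker given as eye drops, is a *CYP2D6* substrate.

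The other drug genes of family 2 were under the threshold on every array. *CYP2E1*, the ethanol-induced enzyme, had 4 probe sets with means between 3.94 and 5.34. *CYP2B6* had means of 5.44 ± 0.07 and 4.27 ± 0.07, and *CYP2C8*, which oxidizes paclitaxel and arachidonic acid, 4.38 ± 0.10 and 4.09 ± 0.04. *CYP2F1*, a lung enzyme, averaged 4.38 ± 0.06 and *CYP2W1*, described in tumours, 5.29 ± 0.05. The 3 family 2 genes that act on lipids were also under it: *CYP2J2*, an arachidonic acid epoxygenase, averaged 5.84 ± 0.13, *CYP2U1*, a fatty acid hydroxylase, 4.43 ± 0.22, and *CYP2R1*, the vitamin D 25-hydroxylase, 4.62 ± 0.25.

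In family 3, 1 of the 3 genes was above background, and by 1 of its 4 probe sets. *CYP3A4*, the main drug-oxidizing enzyme of liver and gut, read 7.65, 8.03 and 7.81 in cultures 1, 2 and 3 at 205998_x_at (limma, adjusted p = 9.6e-05). Its other probe sets averaged 4.99 ± 0.12, 4.95 ± 0.18 and 4.78 ± 0.26, under the threshold on every array. Read as the mean over their probe sets, *CYP3A4* (5.64), *CYP2A6* (6.30) and *CYP1B1* (7.10) were no longer above the threshold on all arrays. The 3 probe sets of *CYP3A5*, the form most often found outside the liver, had means between 3.90 and 5.30, and the 4 of *CYP3A43* had means between 4.46 and 4.94. The hepatocyte markers *ALB*, *APOH*, *AHSG*, *SERPINC1* and *TF*, which mark the cell in which *CYP3A4* and *CYP2A6* are best known, were above the threshold on no array. They lay between 4.33 and 5.79. The panel that set the thresholds also holds liver genes. Without these the thresholds were 7.04, 7.02 and 6.96 in cultures 1, 2 and 3. The summed level of the hepatocyte markers, the log2 of the sum of their unlogged values, was 7.55, 7.67 and 7.44 in cultures 1, 2 and 3. As a sum over several genes it cannot be set against the threshold, which is for single genes.

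**Figure D3:**
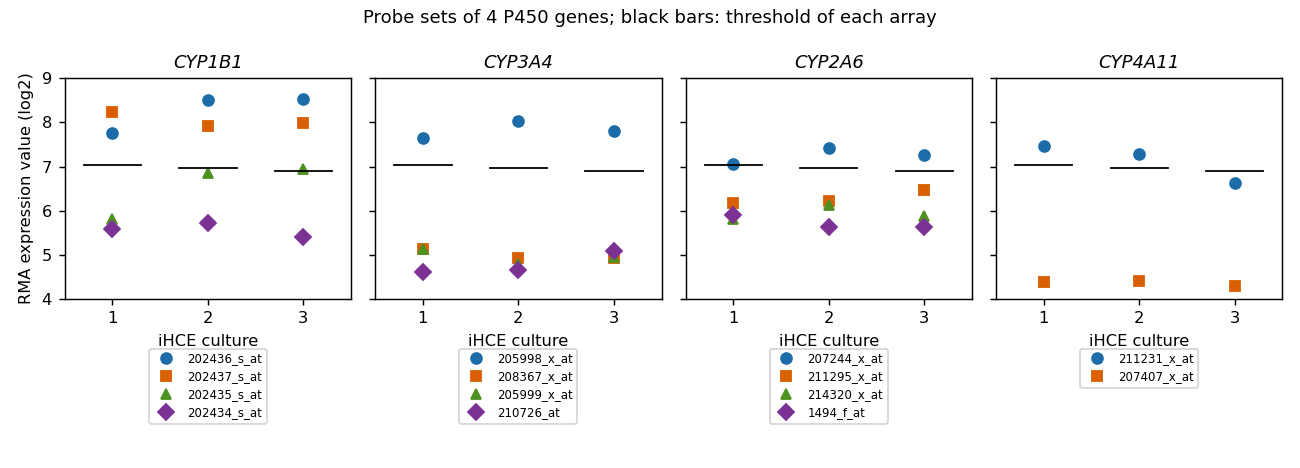
RMA level (log2, vertical axis) of each probe set of *CYP1B1*, *CYP3A4*, *CYP2A6* and *CYP4A11* in iHCE cultures 1, 2 and 3 (horizontal axis), 1 point per array. Black bars mark the threshold of each array. In *CYP3A4* and *CYP2A6* 1 of 4 probe sets lies over the bars on all 3 arrays, and in *CYP1B1* the upper pair of probe sets changes order between culture 1 and the others.

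Of the 7 genes of family 4, which hydroxylate the end of fatty acid chains, 1 was above background. *CYP4F12*, an enzyme of arachidonic acid and of antihistamines, read 7.66, 7.89 and 8.03 in cultures 1, 2 and 3 at its single probe set, 206539_s_at (limma, adjusted p = 9.8e-05). *CYP4A11*, the fatty acid hydroxylase of kidney and liver, read 7.47, 7.29 and 6.63 at 211231_x_at, over the threshold in cultures 1 and 2 but not in culture 3, and did not pass the test (limma, adjusted p = 0.37). Its other probe set averaged 4.36 ± 0.06, under the threshold on every array. The remaining members were under the threshold on every array. *CYP4F2*, which inactivates vitamin K and leukotriene B4, averaged 6.28 ± 0.04. *CYP4F3*, *CYP4F8*, *CYP4F11* and *CYP4B1* had means between 4.36 and 4.48. *CYP4B1* is known in rabbit cornea for making inflammatory products of arachidonic acid, and it read 4.11, 4.54 and 4.43.

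Outside families 1 to 4, 1 of 15 genes was above background and 13 exceeded the threshold on no array. *CYP27A1*, the mitochondrial sterol 27-hydroxylase, read 7.47, 7.44 and 7.25 in cultures 1, 2 and 3 (limma, adjusted p = 0.0022). It is 1 of 29 P450 genes with a single probe set here. The other 4 enzymes of cholesterol breakdown were under the threshold on every array. *CYP7A1*, the rate-limiting enzyme of bile acid synthesis in liver, averaged 3.66 ± 0.05. *CYP39A1* averaged 3.73 ± 0.04, *CYP7B1*, the oxysterol 7-hydroxylase, 4.09 ± 0.04, and *CYP46A1*, the cholesterol 24-hydroxylase of brain, 5.31 ± 0.19.

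Of the vitamin D enzymes, *CYP27B1*, which makes the active hormone, read 7.12, 6.74 and 7.02 in cultures 1, 2 and 3. It exceeded the threshold in cultures 1 and 3 and not in culture 2. *CYP24A1*, which degrades the hormone and is a known target of its receptor, read 4.99, 5.28 and 4.99. The retinoic acid hydroxylases *CYP26A1* and *CYP26B1* averaged 5.59 ± 0.13 and 4.96 ± 0.17. Both were under the threshold on every array.

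No P450 gene of steroid hormone synthesis exceeded the threshold on any array. *CYP11A1*, which cuts the cholesterol side chain, averaged 5.00 ± 0.07, *CYP17A1*, the 17-hydroxylase, 5.82 ± 0.09, and *CYP19A1*, the aromatase of oestrogen synthesis, 4.75 ± 0.14. *CYP11B1*, which completes cortisol, averaged 4.58 ± 0.12 and *CYP11B2*, the aldosterone synthase, 6.48 ± 0.22. *CYP20A1*, whose substrate is not known, read 6.34, 6.34 and 6.32, the narrowest range of the 62 probe sets. Of the steroidogenic markers *STAR*, *HSD3B2*, *NR5A1* and *MC2R*, none was above background, and *MC2R*, the corticotropin receptor gene, exceeded the threshold on 2 arrays.

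**Figure D4:**
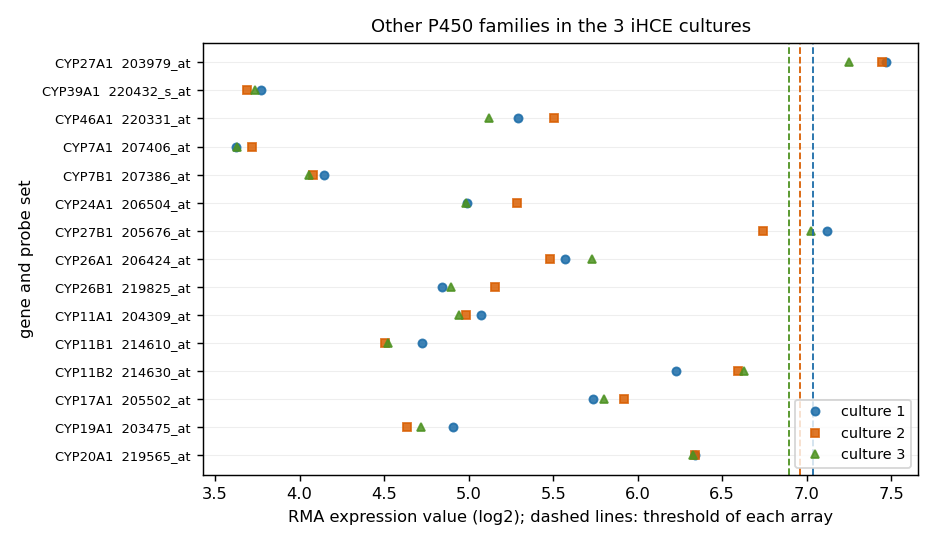
RMA level (log2, horizontal axis) of the 15 probe sets of P450 families outside 1 to 4 in the 3 iHCE cultures, 1 point per culture, with the threshold of each array as a dashed line of the same colour. *CYP27A1* lies right of its lines in all 3 cultures and *CYP27B1* in cultures 1 and 3, and the others lie left of them.

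The list of electron donors and haem supply, which also holds the haem-degrading *HMOX1* and *HMOX2*, was above background at 11 of 14 measured genes. This was 78.6%, against 46.8% of all genes. *FDX1*, the ferredoxin of mitochondrial P450s such as CYP27A1, had a level of 10.59 ± 0.21, the cytochrome b5 reductase gene *CYB5R3* 9.91 ± 0.06 and *UROD*, of haem synthesis, 9.82 ± 0.18. *POR*, the reductase that serves the P450s of the endoplasmic reticulum, read 7.73, 7.27 and 7.34 in cultures 1, 2 and 3. *ALAS1*, the first and rate-limiting step of haem synthesis, averaged 8.28 ± 0.15. The 3 genes under the threshold were *ALAD* and *CPOX*, also of haem synthesis, at 6.48 ± 0.21 and 6.24 ± 0.04, and the haem-degrading *HMOX1* at 6.30 ± 0.20.

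The cholesterol pathway was above background at 15 of 18 measured genes (83.3%, against 46.8% of all genes). The probe sets shared by its P450 gene *CYP51A1* with *LRRD1*, which are not members, averaged 6.74 at the plain _at probe set, over the threshold on no array, and 6.87 at the _s_at probe set, over it on 2 arrays. The brightest were *FDPS*, the farnesyl diphosphate synthase, at 10.65 ± 0.14, *EBP*, a sterol isomerase, at 9.72 ± 0.29 and *IDI1*, an isoprenoid isomerase, at 9.43 ± 0.10. *LSS*, which makes lanosterol, averaged 8.58 ± 0.14, and *TM7SF2*, a reductase that acts after its demethylation, 7.32 ± 0.08. *SREBF1* and *PMVK* exceeded the threshold on 2 arrays each and *MVD* on none.

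In the dioxin receptor pathway 5 of 8 measured genes were above background (62.5%, against 46.8% of all genes). *PTGES3* and *HSP90AB1*, chaperones of the receptor, averaged 11.86 ± 0.10 and 10.84 ± 0.29, and *NQO1*, a quinone reductase that the receptor and NRF2 both induce, 10.75 ± 0.18. The receptor gene *AHR* read 7.11, 6.92 and 7.04, over the threshold in cultures 1 and 3. Its partner *ARNT* averaged 6.46 ± 0.26 and *ALDH3A1*, another target, 5.46 ± 0.21, both under the threshold on every array. *TIPARP*, a target that feeds back on the receptor, averaged 8.44 ± 0.34. Of the drug and lipid sensing receptors 4 of 10 (40%) were above background, near the share of all genes. These were the glucocorticoid receptor gene *NR3C1* (10.76 ± 0.10), *RXRA* (8.97 ± 0.11), *PPARD* (8.55 ± 0.08) and *RXRB* (7.89 ± 0.15). *NR1H3*, an oxysterol receptor, and *PPARG*, a fatty acid receptor, exceeded the threshold on 2 arrays each, and *NR0B2*, *NR1I3*, *RXRG* and *PPARA* on none. *NR1I3*, the CAR receptor of liver, averaged 5.38 ± 0.09 and *PPARA*, which drives *CYP4A11*, 4.68 ± 0.15.

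Vitamin D and retinoid genes were above background at 7 of 14 measured (50%), near the 46.8% of all genes. *ALDH1A3*, which makes retinoic acid, averaged 11.09 ± 0.15, *RDH11*, a retinal reductase, 10.21 ± 0.13 and *DHRS3*, another retinal reductase, 9.36 ± 0.08. The receptor genes *VDR* and *RARG* averaged 8.29 ± 0.18 and 7.82 ± 0.10, beside *CYP24A1* and *CYP26A1* under the threshold. The retinoic acid receptor genes *RARA* (6.44 ± 0.005) and *RARB* (5.61 ± 0.23) were also under the threshold on every array. Among genes of steroid synthesis and conversion 3 of 15 (20%) were above background: *HSD17B4* (10.29 ± 0.15), *SRD5A1* (8.31 ± 0.20) and *STARD3* (7.07 ± 0.14). *STARD3* exceeded the threshold by 0.039 log2 units in culture 3 and did not pass the test (limma, adjusted p = 0.37). Among 11 partners in arachidonate and epoxide metabolism 2 (18.2%) were above background, *LTA4H* (10.97 ± 0.04) and *PTGS1* (7.08 ± 0.17). *PTGS1* exceeded the threshold by 0.0072 log2 units in culture 2 and did not pass the test (limma, adjusted p = 0.31). The epoxide hydrolase genes *EPHX1* and *EPHX2*, which act on P450 products, were under the threshold on every array, *EPHX2* at 5.57 ± 0.14. *PTGIS* and *TBXAS1*, P450 enzymes of prostacyclin and thromboxane synthesis with other symbols, averaged 6.81 ± 0.14 and 5.32 ± 0.06, and *PTGIS* exceeded the threshold on 1 array.

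**Figure D5:**
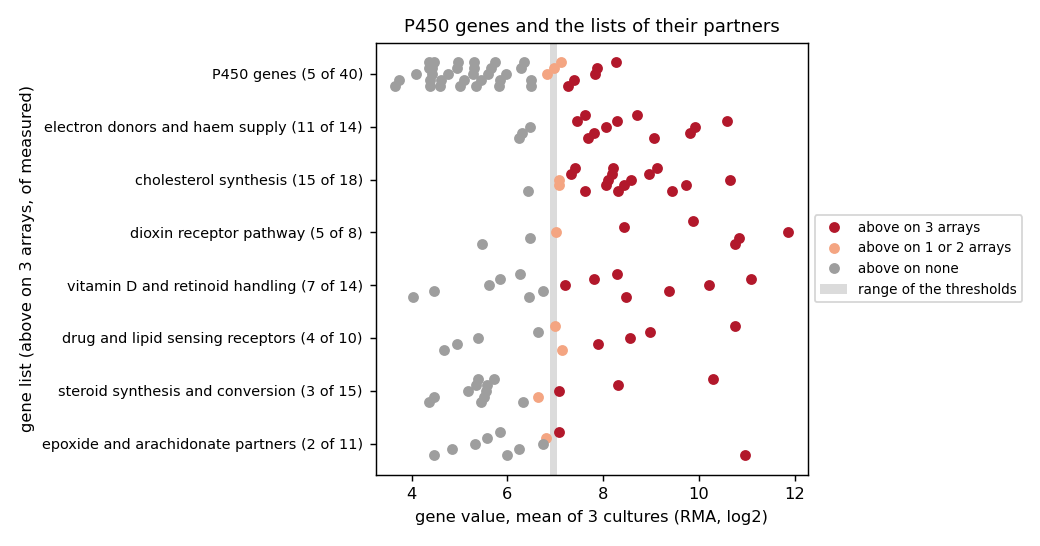
Mean level over the 3 iHCE cultures (RMA log2, horizontal axis) of each P450 gene and of each measured gene of 7 partner lists (rows), coloured by the number of arrays on which it exceeded the threshold. The grey band spans the thresholds, 6.90 to 7.04. Of the P450 genes 5 of 40 were above on all 3 arrays, against 11 of 14 for electron donors and haem supply and 15 of 18 for cholesterol synthesis. The share of all genes was 46.8%.

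The windows around the starts of the P450 genes were searched for letters that nuclear receptors and the dioxin receptor are known to read. RefSeq (GRCh38.p14) gave windows from 250 bases before to 50 bases after the start for 28 of the 40 genes, 39 windows in all. *CYP1B1* and *CYP24A1* were among the 12 genes without a window and were not searched. The half-site AGNTCA, read by many nuclear receptors, was searched on both strands. It was in 19 of the 39 windows, and in 39.2% of all 35116 windows. Several of the 19 windows are of *CYP19A1* and more than 1 is of *CYP4F11*, so they stand for fewer than 19 genes. Pairs of the half-site are rarer. The everted pair with 6 bases between (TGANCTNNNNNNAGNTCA, so that each match also counts as a half-site) was in the windows of *CYP3A4* and *CYP3A5* and in 0.0427% of all windows. The direct pair with 5 bases between (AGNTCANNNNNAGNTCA, also made of half-sites) was in 1 of the 2 windows of *CYP26A1* and in 0.0797% of all. The core TNGCGTG of dioxin receptor sites was in 1 of the 39 windows, that of *CYP20A1*, and in 5.51% of all. 1 window with each kind of pair follows, 5′ to 3′ along the gene, to show how the half-sites lie in it. *CYP3A4* was above background at 1 of its 4 probe sets, while *CYP3A5* and *CYP26A1* were under the threshold on every array. Capitals mark the half-sites, at bases 169 to 164 and 157 to 152 before the start of *CYP3A4* (chr7:99784135-99784434, minus strand) and at bases 90 to 85 and 79 to 74 before that of *CYP26A1* (chr10:93073643-93073942, plus strand). A match is a description of the letters and says nothing of binding in these cells.
CYP3A4: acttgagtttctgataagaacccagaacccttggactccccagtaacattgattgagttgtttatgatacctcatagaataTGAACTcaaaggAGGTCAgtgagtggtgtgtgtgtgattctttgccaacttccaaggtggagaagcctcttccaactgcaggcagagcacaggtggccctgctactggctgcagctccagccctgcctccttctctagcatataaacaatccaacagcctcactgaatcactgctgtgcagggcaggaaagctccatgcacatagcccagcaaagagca
CYP26A1: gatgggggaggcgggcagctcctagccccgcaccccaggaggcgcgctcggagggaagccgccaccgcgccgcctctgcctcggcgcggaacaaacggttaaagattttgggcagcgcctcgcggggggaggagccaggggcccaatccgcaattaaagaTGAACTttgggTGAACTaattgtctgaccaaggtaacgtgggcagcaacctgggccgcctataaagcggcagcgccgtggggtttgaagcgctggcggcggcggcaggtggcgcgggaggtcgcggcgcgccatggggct

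The 62 P450 probe sets had a slightly larger median spread between cultures than all probe sets with 1 gene, and fewer of them had a wide range. Their median SD over the 3 cultures was 0.162, against 0.143 over the probe sets with 1 gene, and 4 of 62 (6.45%) ranged over more than 0.5 log2 units, against 15.9% of those probe sets. These 4 were *CYP1B1* 202435_s_at and 202436_s_at, *CYP4A11* 211231_x_at and *CYP2E1* 209975_at. Culture 1 was the farthest from the other cultures at 24 probe sets (38.7%), culture 2 at 20 and culture 3 at 18. Over all probe sets with 1 gene, culture 1 was the farthest at 44.1%. Culture 1 lay above the mean of cultures 2 and 3 at 35 of the 62 and below it at 27. Over all probe sets with 1 gene it lay above at 9793 and below at 9278. By the mark of the probe sets, 1 of 34 plain _at, 3 of 11 _s_at, 2 of 16 _x_at and 0 of 1 _f_at probe sets were above background. Of the 3 _s_at calls 2 were of *CYP1B1*. The shares by mark over all probe sets with 1 gene were not computed, so these counts have no background to be read against.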

How the data were processed

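RNA of 3 iHCE cultures was measured on Affymetrix arrays, 1 array per culture. The authors deposited log2 values for 22283 probe sets, made by RMA (R 2.8.0 per the submitters' processing notes), which corrects background, normalizes between arrays and summarises probe sets; low values are compressed. The methods state that normalization ran over the study's whole data set, which also held tissue arrays not analysed here. No source says whether the deposited table is from that run.

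Probe sets were named through the platform annotation, with symbols updated by Entrez number from RefSeq GRCh38.p14. The panel listed 78 genes of 12 tissues, of which 71 were measured. The one-sided limma test (limma 3.58.1, R 4.3.3) of the mean above the thresholds was fitted across all probe sets with Benjamini-Hochberg adjustment at 0.05. Its steps were checked on simulated data whose true means lay clear of the threshold on both sides. That check says nothing of calls very near the threshold. Other steps ran in Python 3.11.15.

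The members, lists and panel were chosen with earlier results of these data known. The rule for named genes took every P450 gene and, from each partner list, the 3 brightest genes above background and, where they were 5 or fewer, every gene not above it. Other genes of these lists that the text names were chosen after their values were seen. Alternatives were other thresholds and panels, probe set marks, the mean over probe sets, quantile normalization and leaving out each culture. Arrays give no counting depth, and 3 arrays limit the precision of each mean.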

Additional observations from a re-analysis of the deposited data

How the results depend on the processing

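Of the counts above background, those of 6 P450 probe sets, 5 genes, 4 genes of families 1 to 4 and 1 gene of the other families, all 4 were unchanged without liver genes in the panel, with quantile normalization and with limma. With the panel's 90th percentile 8 genes were above background, 2 of them of the other families (*CYP27B1*, *CYP2D6* and *CYP4A11* were added). With the highest panel value 3 were (*CYP1B1*, *CYP3A4* and *CYP4F12*) and 0 of the other families. With the panel median plus 3 scaled MADs 1 probe set was above, 202437_s_at of *CYP1B1*, and 0 genes, in families 1 to 4 and in the others alike, since *CYP1B1* was read at 202436_s_at. With the panel read over all of its probe sets the other families had 2. Without _x_at and _s_at probe sets, 1 of 35 probe sets and 1 of 31 genes, *CYP27A1*, were above, and 0 of 17 of families 1 to 4. The share of all genes above background in that setting was not computed. With the mean over a gene's probe sets 2 genes were (*CYP27A1* and *CYP4F12*), 1 of them of families 1 to 4, and the level of *CYP1B1* was 7.10, of *CYP2A6* 6.30 and of *CYP3A4* 5.64. Leaving out 1 culture gave 5 to 6 genes and, in the other families, 1 to 2, with *CYP27B1* added without culture 2 and *CYP4A11* without culture 3. No paired analysis was possible because there is 1 group. Among the P450 genes, *CYP2A6*, 0.026 log2 units over the threshold in culture 1, is the call nearest to it. Signal over background limits what can be said of the dim genes.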
